A study of Mus musculus with 12 samples.

Results

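The mitochondrial ribosomal protein genes, as named here, are the 78 genes whose symbols are Mrpl or Mrps followed by a number and at most 1 letter, out of 55348 gene rows in the count tables. 49 of them carry large subunit symbols (Mrpl) and 29 small subunit symbols (Mrps). They were taken by symbol alone, so that no measured value entered the choice. The tables hold RNA-sequencing counts from mouse organ of Corti, the strip of hair cells and supporting cells in the cochlea, dissected at post-natal day 21 after removal of the stria vascularis and the modiolus. 4 genotypes were sequenced with 3 libraries each, 12 in all. Wild-type mice carried no mutation. Clrn1-/- mice lacked clarin-1 from the embryo onwards, after a PGK-driven Cre had removed exon 4 in all tissues. Clrn2-/- mice carried the clarinet nonsense mutation of clarin-2, also in all tissues, and Clrn1-/-Clrn2-/- mice (double mutants below) came from crossing both lines. The wild-type mice were bred separately from the mutants, so breeding and genotype cannot be told apart. The labels do not say how many animals stand behind a library, and p-values therefore measure only the spread between these libraries, which may be technical.

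Mitochondria keep their own ribosome, which translates the few proteins that mitochondrial DNA encodes, all of them subunits of the respiratory chain or of ATP synthase. Its RNAs come from mitochondrial DNA, whereas every protein of its large and small subunits is encoded in the nucleus, made in the cytosol and imported. About every second protein has a counterpart in bacteria, and the rest were added during the evolution of mitochondria. In humans, recessive variants of several of these genes cause respiratory chain defects, and variants of MRPS2 and MRPS7 have been linked to sensorineural hearing loss.

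The libraries held 30008679 to 41049302 counts on gene rows of the sense strand, and 95.2% to 95.6% of stranded gene counts fell on that strand. Levels are given as CPM, the usual share of a library's counts, with libraries scaled by the trimmed mean of M-values (TMM). Clrn1 read 25.8 ± 2.47 CPM (SD, n = 3) in wild-type and 28.8 ± 2.83 CPM in Clrn2-/-, against 2.83 ± 0.185 CPM in Clrn1-/- and 2.31 ± 0.482 CPM in double mutants. Clrn2 was low in all groups, at 2.72 ± 0.727 CPM in wild-type and 0.916 ± 0.107, 1.23 ± 0.172 and 1.08 ± 0.138 CPM in Clrn1-/-, Clrn2-/- and double mutants, and its point mutation removes no exon. All 10 hair cell markers were detected. The 10 neuron markers were too, at a summed 11879 CPM in wild-type, although the modiolus had been removed, and the 8 skeletal muscle markers summed to 2.59 to 3.38 CPM by group.

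All 78 genes are protein coding in the GENCODE M21 annotation (GRCm38) and lie on 17 chromosomes. 77 passed the filter on low counts. Mrpl53 had 0 counts in all 12 libraries, which allows at most 3 counts a library, or 0.1 CPM in the shallowest. 88.0% of its exon bases are shared on the same strand with Gm42688. Whether this overlap or a lack of expression lies behind the 0 counts of Mrpl53 was not tested. Mrps34 shares 37.0% of its exon bases with Nme3, Mrps18c 23.2% with Gm43511, and Mrps6 19.9% with Gm49711 and Slc5a3 (a myo-inositol transporter gene that starts in the same place), and values of these genes are uncertain to that extent.

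Per length, the 77 genes spanned a wide range in wild-type organ of Corti. The median was 11.7 FPKM (CPM divided by the kilobases of annotated exon), with quartiles of 7.13 and 19.6 FPKM. The median of the large subunit was 14 FPKM and that of the small subunit 8.66 FPKM. Mrpl34 led with 51.2 ± 1.35 FPKM (SD, n = 3). Mrpl12, whose protein forms the stalk that elongation factors touch, followed at 46.7 ± 3.73 FPKM, then Mrps21 at 45.2 ± 3.22, Mrpl41 at 44.6 ± 2.52 and Mrpl54 at 33.9 ± 1.34 FPKM. Ranks 2 to 4 did not differ beyond their SDs, and Mrpl34 stood above Mrpl12 by less than the sum of their SDs. At the low end stood Mrps18c at 3.65 ± 0.534, Mrps10 at 3.29 ± 0.158, Mrps35 at 2.84 ± 0.0924, Mrpl23 at 2.43 ± 0.157 and Mrpl33 at 0.826 ± 0.0931 FPKM. Of these, Mrps18c and Mrps10 did not differ beyond their SDs. Annotated exon length enters these values. Mrpl33, Mrps10 and Mrps35 have 7326, 8079 and 8631 exon bases against a median of 2530 for the 77 genes, so FPKM is lowered where long annotated exons are little used.

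**Figure D1:**
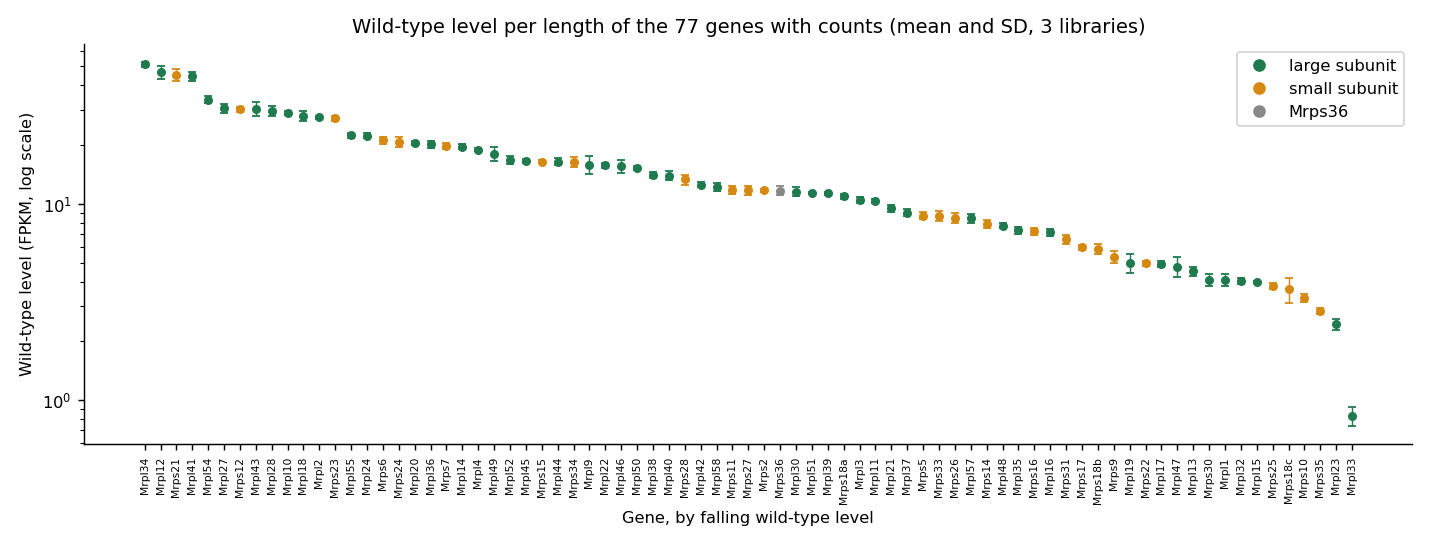
Wild-type level of each of the 77 genes with counts, in FPKM on a log axis, as the mean (point) and SD (bar) of 3 libraries, green for the large subunit, orange for the small subunit and grey for Mrps36. Levels fall from 51.2 FPKM for Mrpl34 to 0.826 FPKM for Mrpl33, and both subunits are spread over the range.

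Summed over the 78 genes, the level was lower wherever Clrn1 was missing. The 3 wild-type libraries held 2378, 2365 and 2512 CPM. The Clrn1-/- libraries held 2181, 2174 and 2302 CPM, the Clrn2-/- libraries 2495, 2449 and 2448 CPM, and the double mutant libraries 2246, 2280 and 2276 CPM. Each of the 6 libraries without Clrn1 lay below each of the 6 libraries with it, while the Clrn2-/- libraries overlapped with wild-type. The large subunit summed to 1680 ± 62.2 CPM (SD, n = 3) in wild-type and 1720 ± 13.6 CPM in Clrn2-/-, against 1530 ± 56.2 CPM in Clrn1-/- and 1570 ± 14.9 CPM in double mutants. The small subunit summed to 725 ± 19.1 and 732 ± 13.5 CPM, against 676 ± 16 and 689 ± 2.93 CPM, in the same order. The small subunit's sum was 43.2% and 42.6% of that of the large subunit with Clrn1, and 44.2% and 44% without it, with an SD of 0.252 to 0.764 percentage points within groups. Scaled by library size alone, the Clrn1-/- libraries reached up to 2313 CPM and the wild-type libraries down to 2329 CPM. In whole tissue, fewer cells of a type and less RNA per cell cannot be told apart.

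**Figure D2:**
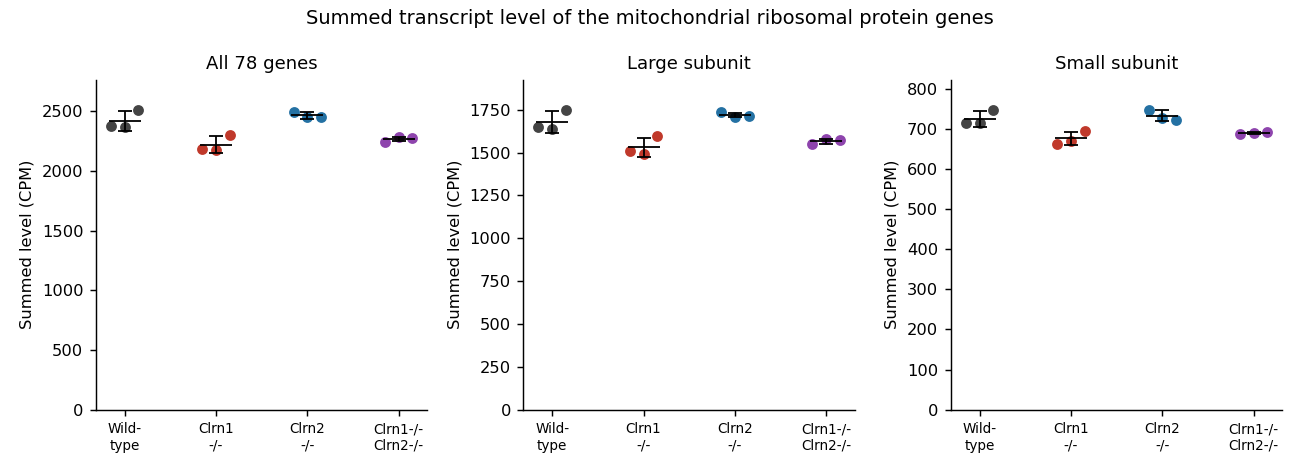
Summed level in CPM of all 78 genes, of the large subunit and of the small subunit, 1 point per library, with the mean (line) and SD (bar) of 3 libraries per genotype. For all 78 genes the 6 libraries without Clrn1 lie between 2174 and 2302 CPM and the 6 with Clrn1 between 2365 and 2512 CPM.

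In Clrn1-/- mice, 25 of the 77 genes were lower than in wild-type and 1 was higher (adjusted p up to 0.05 in edgeR's quasi-likelihood test with Benjamini-Hochberg adjustment over 19052 genes), where 13.3% of all genes tested were lower and 13.6% higher. The median log2 fold change of the 77 genes was -0.13, against -0.003 over all genes, and 67 of the 77 values were below 0. None reached 1.5-fold, which 7.22% of all genes did with that p. In 35 of the 77 genes all 3 Clrn1-/- libraries lay below all 3 wild-type libraries, against 19.8% of all genes, and in 2 above them, against 20.5%. Without Wild-type replicate 3, the library with the highest sum, 16 genes were lower and 2 higher.

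Mrpl3, whose bacterial counterpart reaches towards the catalytic centre of the large subunit, fell most. It read 69.2, 67.3 and 71.8 CPM in wild-type and 47.6, 47.7 and 48.3 CPM in Clrn1-/-, with 64.5, 63.2 and 66.4 CPM in Clrn2-/- and 49.1, 52.4 and 55.5 CPM in double mutants. The libraries without Clrn1 lay far below all others, and those of Clrn2-/- just below wild-type. The log2 fold change was -0.54 ± 0.047 (SE) in Clrn1-/- (adjusted p = 8.71e-07, edgeR) and -0.41 ± 0.047 in double mutants (adjusted p = 5.21e-06), and -0.10 ± 0.047 in Clrn2-/- (adjusted p = 0.167).

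Mrpl34, the highest of the 77 genes by wild-type FPKM, read 31.2, 30.2 and 31.8 CPM in wild-type and 24.6, 22.6 and 25.6 CPM in Clrn1-/-, and the groups did not overlap (log2 fold change -0.36 ± 0.056, adjusted p = 0.000197, edgeR). The Clrn2-/- libraries, at 30.7, 30.3 and 30.9 CPM, lay among the wild-type values, and the double mutants, at 25.3, 27.3 and 27.0 CPM, below them. Mrpl41, a large subunit protein without a bacterial counterpart, fell by 0.38 on the log2 scale in Clrn1-/- (adjusted p = 0.00181), from 38.5, 38.1 and 42.1 to 28.6, 29.2 and 33.3 CPM. In double mutants it read 31.4, 38.2 and 34.4 CPM, a range that reached into wild-type. Mrpl54 fell by 0.33 in Clrn1-/- (adjusted p = 0.000294) and Mrps36 by 0.35 (adjusted p = 0.00385). The product of Mrps36 was first listed with the small subunit and later assigned to the 2-oxoglutarate dehydrogenase complex of the citric acid cycle. It is counted with neither subunit here.

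Mrps35, a small subunit protein without a bacterial counterpart, was the 1 gene that rose in Clrn1-/-. It read 23.8, 24.4 and 25.4 CPM in wild-type and 32.0, 31.5 and 30.5 CPM in Clrn1-/-, with 25.6, 24.5 and 22.5 CPM in Clrn2-/- and 27.1, 28.2 and 27.0 CPM in double mutants. Both groups without Clrn1 lay above both groups with it, and Clrn1-/- above double mutants. The log2 fold change was 0.35 ± 0.056 in Clrn1-/- (adjusted p = 0.000229, edgeR) and 0.16 ± 0.056 in double mutants (adjusted p = 0.0311). The second call was lost without double mutant replicate 2 (0.14, adjusted p = 0.126), and also with DESeq2 (adjusted p = 0.0526) and without a filter (adjusted p = 0.133). Over the 12 libraries, 11.3% of stranded counts on Mrps35 lay on the opposite strand, against 0.119% on Mrpl3. With unstranded counts the log2 fold changes of Mrps35 were 0.57 (adjusted p = 8.68e-07) and 0.42 (adjusted p = 8.57e-06).

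In Clrn2-/- mice few of the genes moved. 2 of the 77 were lower and 5 higher than in wild-type by the same threshold, against 7.07% and 7.14% of all genes, and the median was 0.03. None reached 1.5-fold, as 2.66% of all genes did. The libraries did not overlap in 8 genes that were lower and 14 that were higher, against 14.4% and 14.6% of all genes. Mrps2, a protein of the small subunit linked to hearing loss in humans, was lower by 0.23 on the log2 scale (adjusted p = 0.00952, edgeR), and Mrps15 by 0.18 (adjusted p = 0.0287). Mrpl9 was higher by 0.25 (adjusted p = 0.0161) and Mrpl50 by 0.25 (adjusted p = 0.00528). Mrpl44, whose protein is related to double-stranded RNA nucleases, was higher by 0.19 (adjusted p = 0.0491), Mrpl57 by 0.19 (adjusted p = 0.0421) and Mrps25 by 0.19 (adjusted p = 0.0436). These counts were not stable. With 1 library left out in turn, 0 to 2 genes were lower and 1 to 9 higher. The lower count was 0 without Clrn2-/- replicate 3 and 1 without Wild-type replicate 1 or 2 or Clrn2-/- replicate 2. The higher count was 1 without Wild-type replicate 1 or 2, 2 without Clrn2-/- replicate 1 or 2, and 9 without Wild-type replicate 3. Scaled by library size alone, 15 were higher and 1 lower, but that scaling put the median of all genes at 0.031. The shares of all genes above are those with TMM.

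In double mutants, 25 of the 77 genes were lower than in wild-type and 2 higher, against 17.9% and 19.1% of all genes, and the median was -0.10, with 60 of 77 values below 0. None reached 1.5-fold, as 9.9% of all genes did. The libraries did not overlap in 35 genes that were lower and 4 that were higher, against 23.2% and 25% of all genes. Without Wild-type replicate 3, 15 genes were lower and 3 higher. With any 1 of the other 5 libraries of both groups left out, 1 gene was higher. Scaled by library size alone, which put the median of all genes at 0.042, 15 genes were lower and 5 higher. The shares of all genes above are those with TMM.

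After Mrpl3, the genes that fell most in double mutants were Mrpl46, Mrpl35, Mrps2 and Mrps11. Mrpl46 read 20.0, 22.6 and 23.2 CPM in wild-type and 18.8, 16.5 and 18.02 CPM in double mutants, without overlap (log2 fold change -0.30 ± 0.072, adjusted p = 0.00358, edgeR). Mrps11 read 25.8, 24.2 and 26.7 CPM in wild-type and 19.7, 21.7 and 21.6 CPM in double mutants, also without overlap (-0.29 ± 0.070, adjusted p = 0.00421). These are neighbours on chromosome 7 (Mrpl46 at 78775236 to 78783531 on the minus strand, Mrps11 at 78783119 to 78792989 on the plus strand) that start head to head and share 173 exon bases on opposite strands. In Clrn1-/- their log2 fold changes were -0.18 (adjusted p = 0.0711) and -0.14 (adjusted p = 0.161).

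Mrpl35, a large subunit protein of the bacterial family, was lower in double mutants. It read 30.5, 29.2 and 31.7 CPM in wild-type, 30.1, 28.7 and 30.6 CPM in Clrn1-/- and 31.9, 30.1 and 29.8 CPM in Clrn2-/-, against 24.03, 26.8 and 23.9 CPM in double mutants. All 3 double mutant libraries lay below the other 9, and the single mutants overlapped with wild-type. The log2 fold change was -0.29 ± 0.058 against wild-type (adjusted p = 0.000918, edgeR) and -0.26 ± 0.059 against Clrn1-/- (adjusted p = 0.00289). Mrps5, a small subunit protein of the bacterial family, had a log2 fold change of -0.28 ± 0.049 against wild-type in double mutants (adjusted p = 0.000265), -0.23 against Clrn1-/- (adjusted p = 0.00199), and against wild-type -0.05 in Clrn1-/- (adjusted p = 0.458) and -0.04 in Clrn2-/- (adjusted p = 0.639).

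Mrps2 was lower in all 3 mutants. It read 34.3, 33.6 and 34.4 CPM in wild-type, 27.8, 30.1 and 27.8 CPM in Clrn1-/-, 30.4, 29.3 and 27.3 CPM in Clrn2-/- and 26.9, 29.0 and 27.8 CPM in double mutants. All 9 mutant libraries lay below all 3 of wild-type, which were the same 3 libraries in each comparison. The mutants overlapped with one another. The log2 fold changes were -0.25 (adjusted p = 0.00284, edgeR), -0.23 and -0.29 (adjusted p = 0.000624) in Clrn1-/-, Clrn2-/- and double mutants. Mrps15 was lower in all 3 as well, by 0.20 (adjusted p = 0.0110), 0.18 and 0.19 (adjusted p = 0.0106). Mrps7, the other small subunit gene linked to hearing loss, read 42.2, 39.8 and 40.0 CPM in wild-type and 36.4, 36.3 and 38.7 CPM in Clrn1-/-, where it was lower by 0.13 (adjusted p = 0.0435). In double mutants its log2 fold change was 0.01 (adjusted p = 0.870).

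Mrps6 moved in opposite directions in Clrn1-/- and double mutants. It read 30.6, 32.7 and 33.2 CPM in wild-type, 28.9, 29.2 and 28.8 CPM in Clrn1-/-, 35.9, 36.2 and 34.3 CPM in Clrn2-/- and 39.9, 40.8 and 40.3 CPM in double mutants. No pair of groups overlapped. The log2 fold change against wild-type was -0.15 ± 0.047 in Clrn1-/- (adjusted p = 0.0271, edgeR), 0.14 ± 0.047 in Clrn2-/- (adjusted p = 0.0558) and 0.33 ± 0.047 in double mutants (adjusted p = 4.39e-05). Against Clrn1-/-, double mutants were higher by 0.48 ± 0.047 (adjusted p = 1.9e-06). Slc5a3, which shares part of its exons, read 137 ± 9.26 CPM in wild-type and 167 ± 1.27 CPM in double mutants (log2 fold change 0.29, adjusted p = 0.0195). Its part in the Mrps6 counts was not tested.

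**Figure D3:**
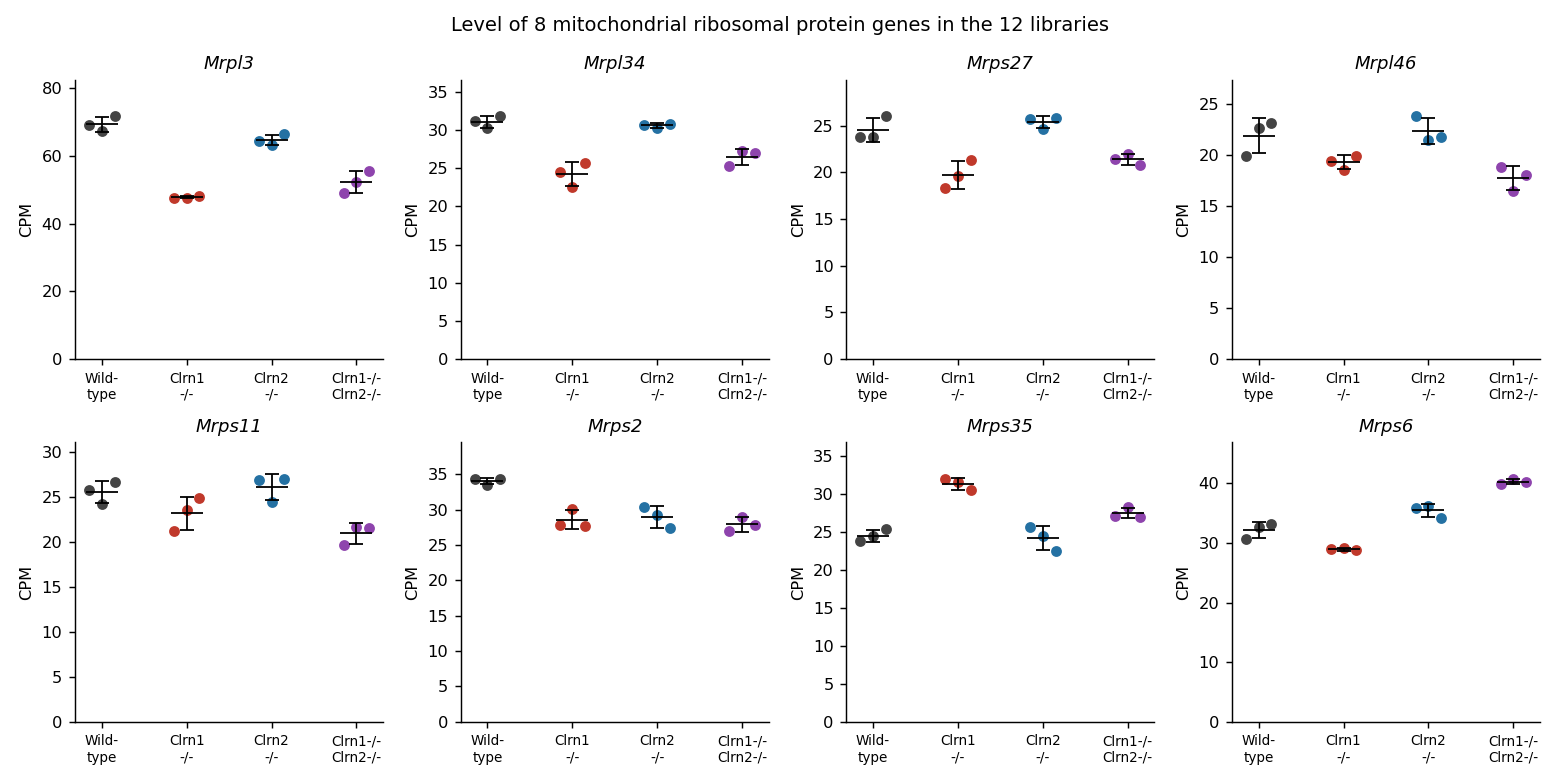
Level in CPM of 8 genes in the 12 libraries, 1 point per library, with the mean (line) and SD (bar) of 3 libraries per genotype and every axis starting at 0. Mrpl3, Mrpl34 and Mrps27 are low in both groups without Clrn1, Mrpl46 and Mrps11 lowest in double mutants, Mrps2 low in all mutants, Mrps35 high in both groups without Clrn1 and Mrps6 highest in double mutants.

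The study's genotypes also give the same loss in 2 settings that share no library. Clrn1 is lost from Clrn1-/- against wild-type and again from double mutants against Clrn2-/-. In the second comparison 25 of the 77 genes were lower and 2 higher, against 13.2% and 14.4% of all genes, and the median was -0.12, with 65 of 77 values below 0. The largest decreases were those of Mrpl46 (-0.33, adjusted p = 0.00305, edgeR), Mrps11 (-0.32, adjusted p = 0.00315) and Mrpl3 (-0.31, adjusted p = 0.000219), and the increases those of Mrps35 (0.18, adjusted p = 0.0240, and 0.12 with adjusted p = 0.139 without Clrn2-/- replicate 3) and Mrps6 (0.19, adjusted p = 0.0078). The higher count was 1 when Clrn2-/- replicate 2 or 3 or any double mutant library was left out. Only 6 genes were lower in both comparisons, 24% of either list, namely Mrpl3, Mrpl12, Mrpl15, Mrpl34, Mrpl42 and Mrps27, and Mrps35 was higher in both. Over all genes, those lower in both were 30.9% of the first list and 31.2% of the second. Across the 77 genes, which are not independent replicates, the log2 fold changes of the 2 comparisons had a Pearson r of 0.01 and a Spearman rho of -0.06, against 0.35 and 0.26 across all genes. 56 of the 77 genes were below 0 in both comparisons and 1 was above 0 in both.

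Averaged over both settings, as a contrast of 6 libraries without Clrn1 against 6 with it that was added after seeing the data, 43 of the 77 genes were lower and 1 higher, against 16.7% and 17.6% of all genes. The median was -0.12, a change of -8.0% on the linear scale, and 74 of 77 values were below 0. In 15 genes all 6 libraries without Clrn1 lay below all 6 with it, against 3.15% of all genes. They were Mrpl3, Mrpl11, Mrpl12, Mrpl15, Mrpl18, Mrpl34, Mrpl38, Mrpl42, Mrpl54, Mrpl55, Mrps22, Mrps23, Mrps24, Mrps27 and Mrps33. In 1 gene, Mrps35, they lay above, against 3.85% of all genes. Mrpl12 read 70.4, 66.5 and 77.7 CPM in wild-type and 71.3, 77.8 and 74.3 CPM in Clrn2-/-, against 58.8, 55.7 and 60.9 CPM in Clrn1-/- and 63.0, 63.2 and 63.9 CPM in double mutants. Mrps27, a small subunit protein with pentatricopeptide repeats, read 23.8, 23.8 and 26.0 CPM in wild-type and 25.7, 24.6 and 25.8 CPM in Clrn2-/-, against 18.3, 19.6 and 21.3 CPM in Clrn1-/- and 21.4, 21.96 and 20.8 CPM in double mutants. By subunit, 28 of 50 tested genes of the large subunit were lower (median -0.12) and 14 of 26 of the small subunit (median -0.12). By origin, 25 of 45 genes with bacterial counterparts were lower (median -0.12) and 17 of 31 without (median -0.13). Mrps30 and Mrps18a carry small subunit symbols although their proteins sit in the large subunit, and are counted there. Mrps30 showed a log2 fold change of -0.03 in Clrn1-/- (adjusted p = 0.806) and 0.002 in double mutants (adjusted p = 0.986), and Mrps18a fell by 0.23 in double mutants (adjusted p = 0.0024).

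**Figure D4:**
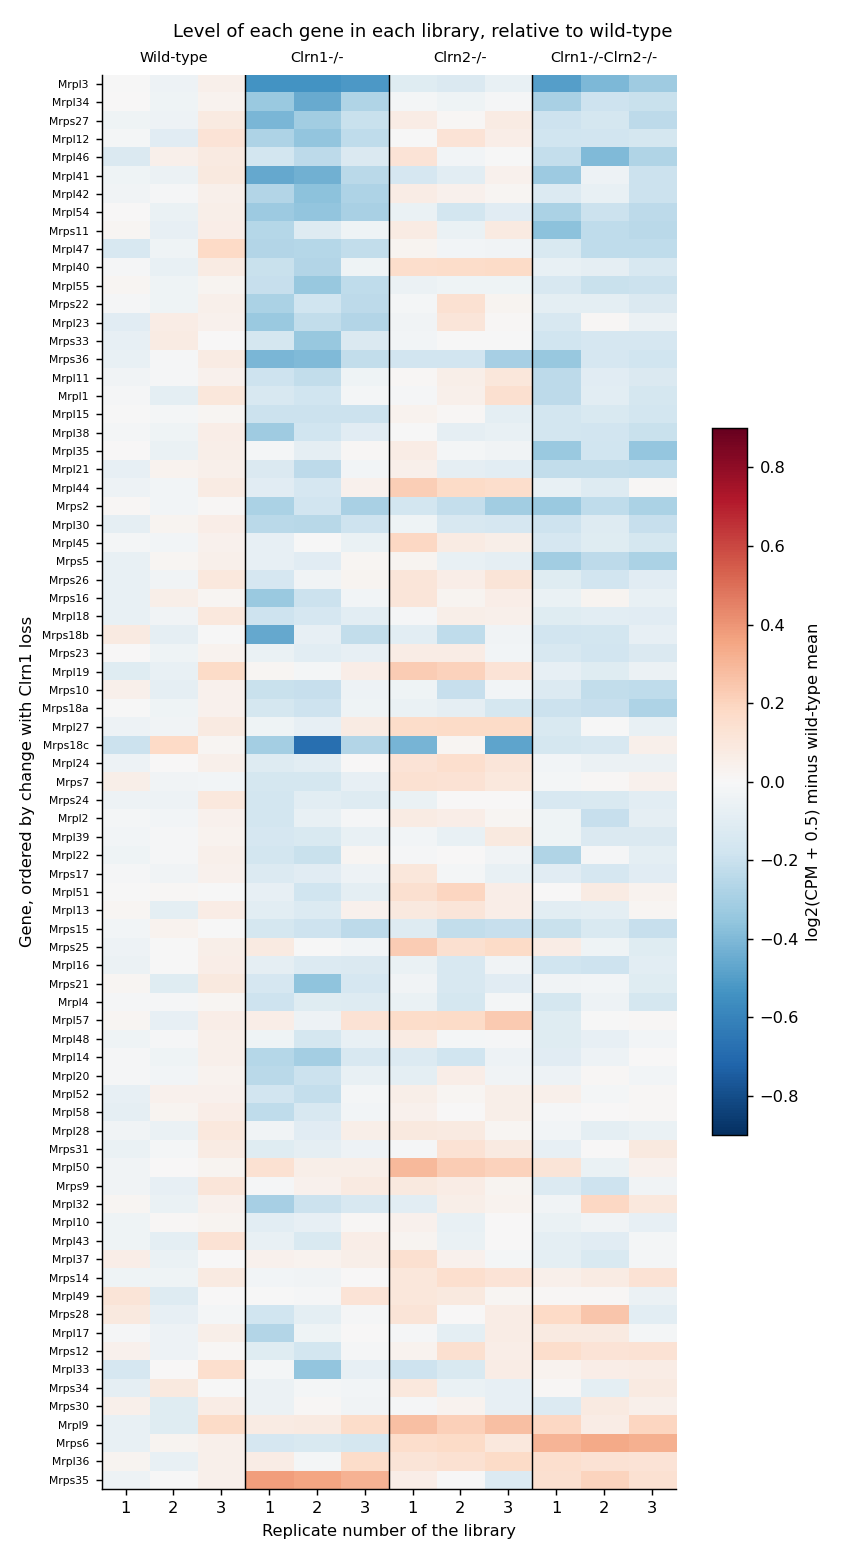
Level of the 77 genes (rows) in the 12 libraries (columns) as log2(CPM + 0.5) minus the mean of the 3 wild-type libraries, blue for lower and red for higher, with rows ordered by their change over both settings of Clrn1 loss. Blue prevails in the Clrn1-/- and double mutant columns, where 74 of 77 averaged changes are below 0, and Mrps35 in the last row is red there.

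Loss of Clrn2, averaged over both Clrn1 genotypes in the same way and also added after seeing the data, gave 4 genes lower and 8 higher, against 14.2% and 14.9% of all genes, with a median of 0.02. Mrps6 was the gene that rose most (0.31, adjusted p = 4.53e-06, edgeR), followed by Mrps12 (0.16, adjusted p = 0.00471) and Mrpl9 (0.15, adjusted p = 0.0224), and Mrps5 fell most (-0.14, adjusted p = 0.00742). With 1 library left out, 2 genes were lower without Clrn1-/- replicate 3, Clrn2-/- replicate 2 or 3, or double mutant replicate 1 or 3. The higher count was 4 without Wild-type replicate 1 or Clrn1-/- replicate 2, 5 without Wild-type replicate 2, and 15 without Clrn1-/- replicate 3. Scaled by library size alone, which put the median of all genes at 0.021, 14 were higher and 3 lower. Double mutants compared with Clrn1-/- had 3 genes lower and 9 higher, against 14.6% and 15.7% of all genes. Besides Mrps6, the largest increases there were those of Mrpl32 (0.30, adjusted p = 0.00394) and Mrps12 (0.23, adjusted p = 0.00306), and Mrps35 fell by 0.19 (adjusted p = 0.0161). The higher count was 5 without Clrn1-/- replicate 1 or double mutant replicate 3, and 3 without Clrn1-/- replicate 2 or double mutant replicate 2. The lower count was 5 without double mutant replicate 3. Clrn1-/- compared directly with Clrn2-/- had 25 genes lower and 1 higher, against 8.99% and 9.51% of all genes, with 76 of 77 values below 0 and a median of -0.15. Mrpl3 (-0.44, adjusted p = 1.14e-05), Mrps27 (-0.36, adjusted p = 0.000985) and Mrpl42 (-0.35, adjusted p = 0.000116) were lowest and Mrps35 was higher (0.37, adjusted p = 0.000261). 16 genes were lower without Clrn1-/- replicate 2 or without Clrn2-/- replicate 2.

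The interaction of the genotypes asks whether the double mutant differs from the sum of both single mutants on the log2 scale. 3 genes were below that sum and 5 above it, against 8.06% and 9.32% of all genes, with a median of 0.02. Mrps6 lay above it by 0.34 ± 0.066 (adjusted p = 0.00262, edgeR), Mrps36 by 0.34 ± 0.11 (adjusted p = 0.0460) and Mrpl14 by 0.31 ± 0.092 (adjusted p = 0.0273). Mrpl50 lay below it by -0.30 ± 0.075 (adjusted p = 0.0129), Mrpl57 by -0.28 ± 0.085 (adjusted p = 0.0351) and Mrpl35 by -0.27 ± 0.082 (adjusted p = 0.0349). Mrpl50, for one, read 31.4, 32.2 and 32.7 CPM in wild-type, 35.4, 33.3 and 33.3 CPM in Clrn1-/-, 39.5, 37.7 and 37.2 CPM in Clrn2-/- and 34.8, 30.7 and 33.0 CPM in double mutants, so that only the Clrn2-/- libraries stood apart from all others. These counts turned on single libraries and on the scaling, with 10 genes below the sum and 3 above it under library size alone, and 11 and 1 without Wild-type replicate 3. The lower count was 1 without Wild-type replicate 2, 5 without Clrn1-/- replicate 2 and 7 without Clrn2-/- replicate 3. The higher count was 1 without Wild-type replicate 1, Clrn1-/- replicate 1 or 2, or double mutant replicate 2 or 3, 2 without Clrn2-/- replicate 1 or 2, and 3 without Clrn1-/- replicate 3 or Clrn2-/- replicate 3.

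The spread over the 12 libraries, as the SD of log2(CPM + 0.5), was largest for Mrps18c (0.247), Mrpl3 (0.231) and Mrps6 (0.184). Mrps18c has few counts, between 2.25 and 4.49 CPM by library, and passed no comparison with wild-type, with a log2 fold change of -0.48 ± 0.17 in Clrn1-/- (adjusted p = 0.0534, edgeR). For Mrpl3 and Mrps6 the libraries of a genotype lay close together.

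The promoters of these genes are shown because many of the genes moved together. Windows from 250 bases before to 50 bases after the RefSeq start (GRCm38.p6) were found for 69 of the 78 genes. They were searched on both strands for short motifs of factors known to act on nuclear genes of mitochondria. CCGGAAG, the core bound by ETS factors such as GABP, was in 25 of 69 windows (36.2%), against 15.7% of the 12957 windows of genes tested here and 9.1% of all 27025 windows. GCGCATGC, the core of the NRF1 motif, was in 8 (11.6%, against 4.8% and 2.8%), and AAGATGGC, the YY1 core, in 12 (17.4%, against 4.0% and 2.9%). GGGCGG, the GC box, was in 34 (49.3%, against 60.4% and 35.9%), ATTGG, the CCAAT box, in 27 (39.1%, against 38.3% and 37.9%) and CACGTG, the E-box, in 5 (7.2%, against 9.5% and 7.2%). The ETS and YY1 cores can overlap by the letters AAG, and both were then counted. 13 of 24 tested genes with the ETS core were lower with Clrn1 loss and 26 of 44 without it, 7 of 12 with the YY1 core and 32 of 56 without, and 1 of 8 with the NRF1 core and 38 of 60 without.

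The stretches of 100 bases before the start of 5 genes follow, 5′ to 3′ in the direction of the gene, with letters of the ETS, NRF1 and YY1 cores in capitals. Mrpl3, Mrpl34 and Mrps27 are given as genes lower in all libraries without Clrn1, each with an ETS core. Mrpl11, Mrpl12, Mrpl42, Mrpl55 and Mrps24, also lower in all those libraries, have no ETS core in their windows. Mrpl32, which was lower in Clrn1-/- (-0.21, adjusted p = 0.0356, edgeR) and had a log2 fold change of 0.09 in double mutants (adjusted p = 0.356), is given for its NRF1 cores. Mrps6, which rose in double mutants, has none of the 3 in this stretch. The last line is the gap between the RefSeq starts of Mrpl46 and Mrps11, read in the direction of Mrps11. They lie at chr9:105053168-105053267 (plus strand), chr8:71464826-71464925 (plus), chr13:99344686-99344785 (plus), chr13:14613038-14613137 (minus), chr16:92058236-92058335 (plus) and chr7:78783090-78783130 (plus) of GRCm38.p6.
Mrpl3: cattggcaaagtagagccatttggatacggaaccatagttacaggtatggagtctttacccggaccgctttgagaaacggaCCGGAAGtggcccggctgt
Mrpl34: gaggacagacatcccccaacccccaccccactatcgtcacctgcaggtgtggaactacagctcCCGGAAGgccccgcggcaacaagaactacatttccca
Mrps27: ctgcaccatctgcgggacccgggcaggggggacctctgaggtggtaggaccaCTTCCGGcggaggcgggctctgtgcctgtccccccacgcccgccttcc
Mrpl32: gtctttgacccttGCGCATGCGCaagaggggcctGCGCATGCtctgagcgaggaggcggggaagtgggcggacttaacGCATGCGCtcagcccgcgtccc
Mrps6: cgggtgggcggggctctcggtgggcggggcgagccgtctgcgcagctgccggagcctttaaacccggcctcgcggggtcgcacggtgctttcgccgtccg
Between Mrpl46 and Mrps11: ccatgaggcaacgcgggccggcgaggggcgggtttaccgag

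Starts shared with a neighbour are common among these genes. 33 of 78 (42.3%) start within 1000 bases of a protein-coding gene on the opposite strand, against 10.9% of 21938 protein-coding genes. The partners include other genes of mitochondria, such as Sars2 beside Mrps12 (172 bases apart), Ndufs6 beside Mrpl36, Ndufb5 beside Mrpl47 and Twnk, the mitochondrial DNA helicase gene, beside Mrpl43. With Clrn1 loss over both settings, 16 of 33 tested genes with such a start were lower (median -0.12) and 27 of 44 without one (median -0.12).

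Other genes of mitochondrial translation were taken from lists chosen with earlier results of these data known. Their counts in double mutants are read against the 17.9% of all genes that were lower there and the 19.1% that were higher. 5 mitoribosomal proteins with other symbols were tested, and in double mutants 2 of them were lower, Ptcd3 (-0.16, adjusted p = 0.0207, edgeR) and Dap3 (-0.12, adjusted p = 0.0272). Of 27 genes of mitoribosome assembly and rRNA maturation, 8 were lower and 2 higher in double mutants (median -0.05), among them Tfb1m, the rRNA methyltransferase gene (-0.30, adjusted p = 0.0271), Fastkd2 (-0.29, adjusted p = 0.00136), Mterf4 (0.19, adjusted p = 0.0423) and Rpusd3 (0.44, adjusted p = 0.00411). Of 18 translation factor genes, 6 were lower and 0 higher (median -0.11), led by Lrpprc, which stabilises mitochondrial mRNAs (-0.34, adjusted p = 5.33e-05), and Gfm1, the elongation factor G gene (-0.33, adjusted p = 5.1e-06). Of 17 mitochondrial aminoacyl-tRNA synthetase genes, 5 were lower and 1 higher (median -0.09), with Aars2 at -0.51 (adjusted p = 1.45e-05), Vars2 at -0.26 (adjusted p = 0.00192) and Lars2, itself a human deafness gene, at 0.85 ± 0.15 (adjusted p = 0.000328), from 191 ± 38.2 CPM in wild-type to 344 ± 93.2 CPM. Both single mutants had a lower mean of Lars2 than wild-type, at 114 ± 8.76 CPM in Clrn1-/- and 145 ± 12.3 CPM in Clrn2-/-. Of 17 genes of mitochondrial DNA transcription and biogenesis, 5 were lower and 2 higher, with the coactivator genes Ppargc1a and Ppargc1b at -0.42 (adjusted p = 6.66e-07 and 0.00432), their relative Pprc1 at 0.29 (adjusted p = 0.0135) and Gabpa, a subunit gene of the ETS factor GABP, at 0.31 (adjusted p = 0.00453). Of 19 genes of the mitochondrial stress response, 13 were higher and 0 lower in Clrn2-/- (median 0.36), 7 and 1 in double mutants (median 0.12), and 3 and 2 in Clrn1-/- (median -0.01). The shares of all genes that were higher in these comparisons were 7.14%, 19.1% and 13.6%, and those lower 7.07%, 17.9% and 13.3%. Fgf21, a secreted stress factor gene, read 0.224 ± 0.0690 CPM in wild-type, 5.87 ± 0.835 CPM in Clrn2-/- and 2.95 ± 1.23 CPM in double mutants. Gdf15, another secreted stress factor gene, was at 1.32 in double mutants (adjusted p = 0.00393), and Dele1 at -0.12 (adjusted p = 0.0453).

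The nuclear genes of oxidative phosphorylation, whose complexes also hold the products of the mitochondrial ribosome, were lower too. 63 of 85 were lower in Clrn1-/- and 0 higher (median -0.25), 19 and 0 in Clrn2-/- (median -0.08), and 55 and 1 in double mutants (median -0.20). Of all genes, 13.3%, 7.07% and 17.9% were lower and 13.6%, 7.14% and 19.1% higher in these comparisons. Cox8b, a subunit gene of cytochrome c oxidase best known from muscle, was at -2.16 in double mutants (adjusted p = 2.85e-08, edgeR), Ndufa4l2 at -0.47 (adjusted p = 0.0168) and Cox7a1 at 0.59 (adjusted p = 0.00365). Cox8b was low in all 3 mutants. It read 20.0 ± 1.49 CPM in wild-type, and 6.1 ± 1.13, 6.7 ± 1.23 and 4.49 ± 0.84 CPM in Clrn1-/-, Clrn2-/- and double mutants. The genes of the cytosolic ribosome are read against the same shares of all genes. Of 76, 31 were lower and 6 higher in Clrn1-/- (median -0.07), 4 and 26 in Clrn2-/- (median 0.10), and 1 and 45 in double mutants (median 0.14). In double mutants Rpl29 was at -0.70 (adjusted p = 5.78e-05, edgeR), Rpl39 at 0.32 (adjusted p = 0.00844) and Rpl3 at 0.30 (adjusted p = 4.75e-05). Rpl29 was far lower in Clrn1-/-, at 7.62 ± 0.352 CPM, against 68.0 ± 15.4 CPM in double mutants. It read 111 ± 1.36 CPM in wild-type and 118 ± 2.0 CPM in Clrn2-/-. The medians of the mitochondrial and cytosolic ribosomal protein genes were both below 0 in Clrn1-/- (-0.13 and -0.07) and of opposite sign in double mutants (-0.10 and 0.14), a difference that was not tested.

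**Figure D5:**
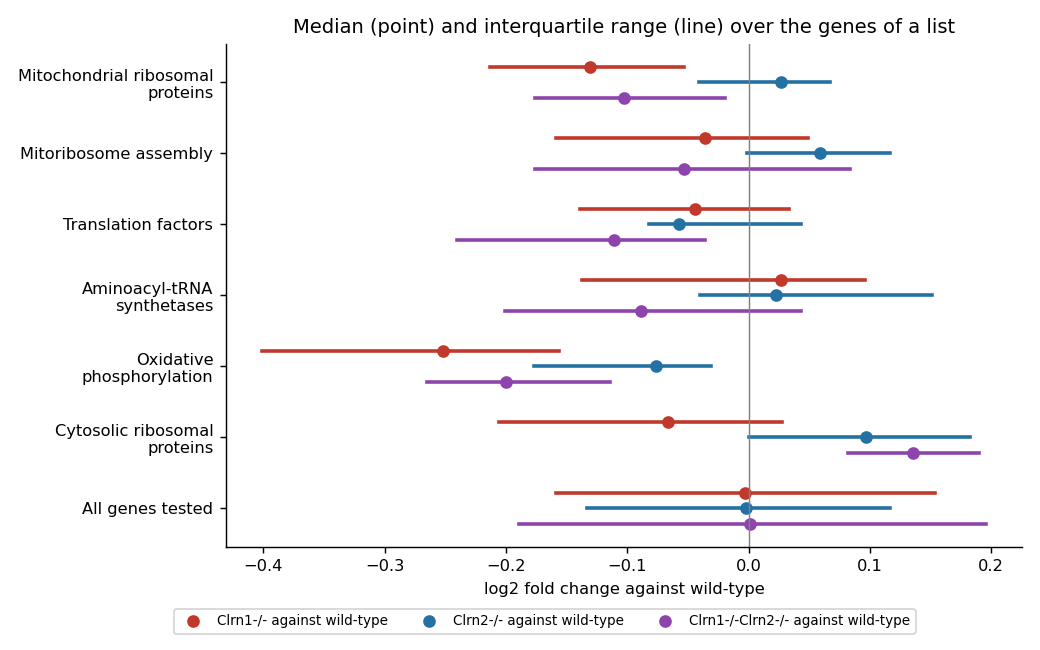
Median (point) and interquartile range (line) of the log2 fold change against wild-type over the genes of each list, red for Clrn1-/-, blue for Clrn2-/- and purple for double mutants, which were all compared with the same 3 wild-type libraries. For the mitochondrial ribosomal proteins the medians are -0.13, 0.03 and -0.10, and those of all genes tested are near 0.

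Markers of cell types moved with the genotypes as well. Of all genes, 16.7% were lower and 17.6% higher with Clrn1 loss over both settings. Against wild-type, 13.3%, 7.07% and 17.9% of all genes were lower in Clrn1-/-, Clrn2-/- and double mutants, and 13.6%, 7.14% and 19.1% higher. The summed level of the 10 neuron markers was 11879 CPM in wild-type, and in the mutants 10474 (Clrn1-/-), 10338 (Clrn2-/-) and 7791 CPM (double), and with Clrn1 loss over both settings 8 of them were lower and 0 higher. The 10 hair cell markers summed to 3118, 2299, 2888 and 2099 CPM, and with Clrn1 loss 4 were lower and 3 higher. Against wild-type, 4 were lower and 2 higher in Clrn1-/-, 0 and 3 in Clrn2-/-, and 3 and 4 in double mutants. Their median log2 fold changes were -0.20, 0.15 and 0.12, so that the sums in Clrn2-/- and double mutants do not describe most of the list. The 5 red blood cell markers summed to 890, 326, 552 and 595 CPM, all 5 lower in each mutant. The 7 macrophage markers summed to 133, 180, 146 and 189 CPM, all 7 higher with Clrn1 loss. The 8 markers of fibroblasts and bone summed to 1808, 2140, 1958 and 2522 CPM, with 4 higher and 0 lower. The 10 supporting cell markers summed to 1518, 1462, 1509 and 1914 CPM, with 5 higher and 1 lower. The 6 stria vascularis markers summed to 557, 548, 560 and 628 CPM, with 1 higher and 2 lower. The 6 myelin markers summed to 20432, 19664, 20293 and 19272 CPM, with 2 higher and 3 lower. The part of these cell types in the lower level of the mitochondrial ribosomal protein genes was not tested.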

How the data were processed

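RNA was poly-A selected and made into stranded libraries. The deposited files hold raw counts of reads per gene, unstranded and by strand, which the authors made with STAR and, per the study, Gencode M24 on GRCm38.p6. DESeq2 is also named in the submitters' processing notes. The reverse-strand counts were used, and 13.5% to 15.8% of reads in that column were unassigned and left out. Analysis used R 4.3.3 and edgeR 4.0.16 (filterByExpr with a minimum count of 10, TMM, quasi-likelihood F test, 1 fit of all 12 libraries by genotype, Benjamini-Hochberg over 19052 genes). CPM were scaled by TMM and divided by GENCODE M21 exon length for FPKM. Calls needed an adjusted p of at most 0.05, alone or with 1.5-fold. Alternatives were limma 3.58.1 (voom, the study's test), DESeq2 1.42.0, library size alone, other filters, only the groups compared, a replicate block, unstranded counts and leaving out each library. The test was checked on simulated data. All pairs of same-group libraries differed by more than sampling noise.

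Named genes were, against wild-type, the 5 largest changes each way past the adjusted p and any past 1.5-fold, 3 each way elsewhere, the 5 highest and 5 lowest by wild-type FPKM, the 3 of largest spread, genes of known relevance, and of each other list up to 2 each way in double mutants. Other genes were named after their values were seen. The genes and lists were chosen with earlier results of these data known. Same-numbered libraries of wild-type and Clrn1-/- deviated together over 12453 genes (r = 0.291, 0.134 and 0.111), and no other pair of groups did so in all 3 numbers. Values of this size occurred with either sign, as in wild-type and double mutants (r = 0.257, -0.279 and 0.306). Pairing by number is therefore uncertain. The main test used genotype alone, and only the replicate block took the numbers into account. The labels state no shared litter or batch.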

Additional observations from a re-analysis of the deposited data

Results flagged for a closer look

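8 genes had an interaction of the Clrn1 and Clrn2 genotypes at an adjusted p of at most 0.05 (edgeR quasi-likelihood test), so that the effect of losing 1 clarin differed with the other clarin's genotype. Mrps6 (0.34 on the log2 scale, adjusted p = 0.00262), Mrps36 (0.34, adjusted p = 0.0460), Mrpl14 (0.31, adjusted p = 0.0273), Mrpl32 (0.31, adjusted p = 0.0445) and Mrpl3 (0.23, adjusted p = 0.0248) were above the sum of both single effects. Mrpl50 (-0.30, adjusted p = 0.0129), Mrpl57 (-0.28, adjusted p = 0.0351) and Mrpl35 (-0.27, adjusted p = 0.0349) were below it. They are 3 genes below the sum and 5 above it out of 77, against 8.06% and 9.32% of all genes, so that neither share exceeded that of all genes. The counts were 10 and 3 with library size alone, and 11 and 1 without Wild-type replicate 3.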

How the results depend on the processing

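41 gene values were followed through the alternatives and none changed sign. Those of the interaction, which takes in all 4 genotypes, were not run with only the groups compared. The call was lost in 2 with DESeq2, 4 with the FPKM filter, 2 with library size alone, 9 without a filter, 4 with only the groups compared, 3 with unstranded counts and 12 with the least favourable library left out, and in none with limma-voom or the replicate block. With library size alone the medians were -0.086 in Clrn1-/-, 0.062 in Clrn2-/-, -0.061 in double mutants and -0.017 for the interaction. The counts of genes lower and higher were then 1 and 15 in Clrn2-/-, 15 and 5 in double mutants and 10 and 3 for the interaction, and 14 were higher with Clrn2 loss. Library size alone put the median of all genes at 0.041, 0.031 and 0.042 in the 3 mutants against wild-type. It was -0.032 for the interaction and 0.021 with Clrn2 loss. Without a filter, 1 gene was lower and 2 higher in Clrn2-/-, 1 higher in double mutants, 5 higher in double mutants against Clrn1-/-, 0 against Clrn2-/- and 5 with Clrn2 loss. With the FPKM filter or unstranded counts 2 were higher in Clrn2-/-, and with only the groups compared 1 was lower and 2 higher. DESeq2 gave 1 higher in double mutants and 3 for the interaction, as did the FPKM filter for the interaction.

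With each library left out in turn, genes lower and higher numbered 16 to 31 and 1 to 2 in Clrn1-/- (median -0.158 to -0.106), 0 to 2 and 1 to 9 in Clrn2-/- (0.007 to 0.054), 15 to 25 and 1 to 3 in double mutants (-0.129 to -0.090), 16 to 32 and 1 for Clrn1-/- against Clrn2-/- (-0.181 to -0.132), 3 to 5 and 3 to 11 for double mutants against Clrn1-/- (0.008 to 0.052), 21 to 29 and 1 to 2 against Clrn2-/- (-0.139 to -0.112), 1 to 11 and 1 to 5 for the interaction (-0.017 to 0.028), 37 to 47 and 1 with Clrn1 loss (-0.142 to -0.115), and 2 to 5 and 4 to 15 with Clrn2 loss (0.011 to 0.033). No gene passed 1.5-fold against wild-type under any of these.

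With the replicate block, 25 genes were lower and 1 higher in Clrn1-/-, 2 and 6 in Clrn2-/- and 25 and 3 in double mutants. The block changed no other call of a named value. In the 100 bases before the start, the ETS core was in 20.3% of promoters, against 8.2% of those of genes tested. The NRF1 core was in 7.2% (against 2.7%) and the YY1 core in 1.4% (against 0.7%). The GC box was in 34.8% (against 44.1%), the CCAAT box in 24.6% (against 22.5%) and the E-box in 2.9% (against 4.3%).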
